A study of Mus musculus with 6 samples.

Results

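The genes described here encode the subunits of the proteasome and the proteins that assemble, activate or inhibit it. They were chosen by name: every gene of the count table with the symbol Psma, Psmb, Psmc, Psmd, Psme, Psmf or Psmg and a number, leaving out the immunoproteasome subunits Psmb8, Psmb9 and Psmb10 and pseudogenes. This gave 45 of the 56941 genes in the table, and all 45 were among the 18562 genes with enough counts to be tested. Expression was measured by RNA sequencing of polyA RNA in primary endothelial cells isolated from mouse lungs with magnetic beads, freed of dead cells and kept in endothelial medium with serum. The sample titles call the cells PAECs and do not spell the term out. One group carried a floxed Fundc1 gene (FL, genotype FUNDC1-FLOX, 3 libraries) and the other lacked it in endothelium (labelled EC-KO, genotype FUNDC1-KO, 3 libraries). The labels give neither the Cre driver, nor the age or sex of the mice, nor the time in culture, nor whether each library came from a separate animal, so a p-value here reflects the spread among these libraries, which may be technical. FUNDC1 sits on mitochondria and marks them for removal by autophagy.

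The proteasome degrades proteins that carry chains of ubiquitin. Its core is a barrel of stacked rings, with outer rings of alpha subunits that gate the entrance and inner rings of beta subunits, of which Psmb5, Psmb6 and Psmb7 hold the catalytic sites. A regulatory particle caps the core: its base contains a ring of ATPases that unfold substrates, and its lid contains the enzyme that removes ubiquitin. Core and regulatory particle together are called the 26S proteasome. Dedicated chaperones build the core and the regulatory particle, and the transcription factor NFE2L1 is known to raise the subunit genes together when proteasome activity is low.

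The results below turn on which of these genes differed between the groups and which did not. The promoters of 5 members are therefore shown: Psmg1, Psmd9 and Psmd5, which passed the test at an interpretable level, and the catalytic subunits Psmb5 and Psmb6. Each runs from 250 bases before to 50 bases after the RefSeq start, 5′ to 3′ on the gene's strand, in the coordinates of GRCm38.p6. Capitals mark matches to the antioxidant response core TGACNNNGC, which NFE2L1 and NFE2L2 recognise, to the CCAAT box and to the heat shock pair GAANNTTC, on either strand.
Psmg1, chr16:95990911-95991210, minus strand: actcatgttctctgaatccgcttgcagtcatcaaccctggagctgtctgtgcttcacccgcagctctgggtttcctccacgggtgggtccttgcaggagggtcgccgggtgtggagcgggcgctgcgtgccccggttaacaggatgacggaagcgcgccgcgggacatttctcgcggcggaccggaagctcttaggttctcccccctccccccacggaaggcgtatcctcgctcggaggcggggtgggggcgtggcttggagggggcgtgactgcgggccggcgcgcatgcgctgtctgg
Psmd9, chr5:123227940-123228239, plus strand: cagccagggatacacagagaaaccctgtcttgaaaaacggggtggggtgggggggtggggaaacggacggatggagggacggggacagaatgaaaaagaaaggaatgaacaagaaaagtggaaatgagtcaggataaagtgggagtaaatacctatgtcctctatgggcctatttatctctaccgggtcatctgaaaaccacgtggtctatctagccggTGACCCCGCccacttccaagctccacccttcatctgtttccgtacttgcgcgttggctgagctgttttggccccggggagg
Psmd5, chr2:34870913-34871212, minus strand: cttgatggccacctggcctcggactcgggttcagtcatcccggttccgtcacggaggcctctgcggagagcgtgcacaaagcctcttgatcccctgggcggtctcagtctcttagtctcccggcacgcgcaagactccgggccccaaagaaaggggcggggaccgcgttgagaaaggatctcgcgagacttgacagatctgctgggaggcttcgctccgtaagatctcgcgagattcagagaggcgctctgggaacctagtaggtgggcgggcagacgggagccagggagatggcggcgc
Psmb5, chr14:54617946-54618245, minus strand: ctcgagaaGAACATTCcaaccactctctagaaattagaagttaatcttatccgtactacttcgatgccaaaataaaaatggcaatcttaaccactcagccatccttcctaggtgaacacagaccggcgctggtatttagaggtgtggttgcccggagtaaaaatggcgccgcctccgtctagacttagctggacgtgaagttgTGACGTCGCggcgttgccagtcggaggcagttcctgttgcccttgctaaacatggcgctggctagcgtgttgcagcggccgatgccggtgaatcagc
Psmb6, chr11:70525107-70525406, plus strand: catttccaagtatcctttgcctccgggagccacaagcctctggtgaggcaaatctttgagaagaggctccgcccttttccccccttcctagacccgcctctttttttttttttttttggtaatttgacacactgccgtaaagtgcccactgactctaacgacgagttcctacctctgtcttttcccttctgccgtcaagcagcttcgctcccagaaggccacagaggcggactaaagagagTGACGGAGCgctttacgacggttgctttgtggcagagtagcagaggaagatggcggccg

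The antioxidant response core began 31 bases before the start of Psmd9, 47 bases before that of Psmb5 and 9 bases before that of Psmb6, and the windows of Psmg1 and Psmd5 held no match to any of these motifs. Psmb5 also held the heat shock pair. A promoter was listed for 37 of the 45 members, but not for Psmb7, the remaining catalytic subunit. The antioxidant response core was in 6 of the 37 (16.2%), against 14.0% of 27025 genes with a listed promoter. Psmd9, Psmb5 and Psmb6 are among these 6, so the windows shown hold it more often than those of the members as a whole. The CCAAT box was in 13 (35.1%), against 41.1%. The heat shock pair was in 2 (5.4%), against 9.0%. A gene with several starts was counted if any of its windows held the motif, and the motifs do not overlap each other in the sequences shown. These letter matches are a description of the windows and say nothing of binding.

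Total counts were 26.7 M to 34.3 M per library. Levels are CPM, counts scaled to library size with TMM factors. A log2 fold change compares EC-KO with FL, positive where EC-KO was higher, and stands with its standard error (SE). A gene is called when its adjusted p in edgeR's quasi-likelihood test is under 0.05, with Benjamini-Hochberg adjustment over all tested genes. Fundc1 was at 25.1, 32.0 and 30.7 CPM in FL 1, 2 and 3 and at 14.1, 18.2 and 12.8 CPM in EC-KO 1, 2 and 3, lower in each knockout library but not absent. Markers of other lung cells were present in all libraries. Of 18 endothelial markers 11 were called lower and 0 higher, and their summed level was 10715 to 14938 CPM in FL and 4111 to 8226 CPM in EC-KO. Epithelial markers (15 of 16 called higher) summed to 1922 to 4522 CPM in FL and 11789 to 17542 CPM in EC-KO, and fibroblast markers (7 of 12 higher) to 1005 to 1332 CPM and 1305 to 3025 CPM. Macrophage markers (13 of 14 lower) summed to 3483 to 5305 CPM in FL and 2053 to 2832 CPM in EC-KO, smooth muscle and pericyte markers (8 of 10 lower) to 625 to 876 CPM and 300 to 441 CPM, and lymphocyte markers (2 of 10 higher, 1 lower) to 336 to 506 CPM and 252 to 625 CPM. No marker on these lists was at 0 in any library. In such bulk samples fewer cells of a type and less RNA per cell cannot be told apart, and the part of this change of makeup in the values below was not tested.

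The genes of the proteasome differed little between the groups. Of the 45 members 3 were called higher in EC-KO (Psmg1, Psmd9 and Psmb11) and 1 lower (Psmd5), 8.89% in all, where 27.1% of all tested genes were called. Psmb11 passed the filter on low counts only through the EC-KO libraries, so its call carries no weight in this count. Without it and Psma8, the members with group means under 1 CPM, 2 of 43 were called higher and 1 lower (6.98%). Scaling the libraries by upper quartile gave 3 higher and 0 lower, and by total count 4 higher and 0 lower. Over all genes 13.5% were called higher and 13.5% lower. The called members other than Psmb11 are chaperones of assembly, with Psmg1 and Psmd9 higher and Psmd5 lower. In the set 2 of 3 base chaperones and 1 of 4 core chaperones were called. Among the 31 subunits of the 26S particle itself, 0 were called by edgeR, 2 had an unadjusted p under 0.05, DESeq2 called 1 (Psma1) and limma-voom called 0. The groups did not overlap in 11 of the 45 members (24.4%), against 45.4% of all tested genes. The median log2 fold change was 0.09 over the members and 0.03 over all tested genes.

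**Figure D1:**
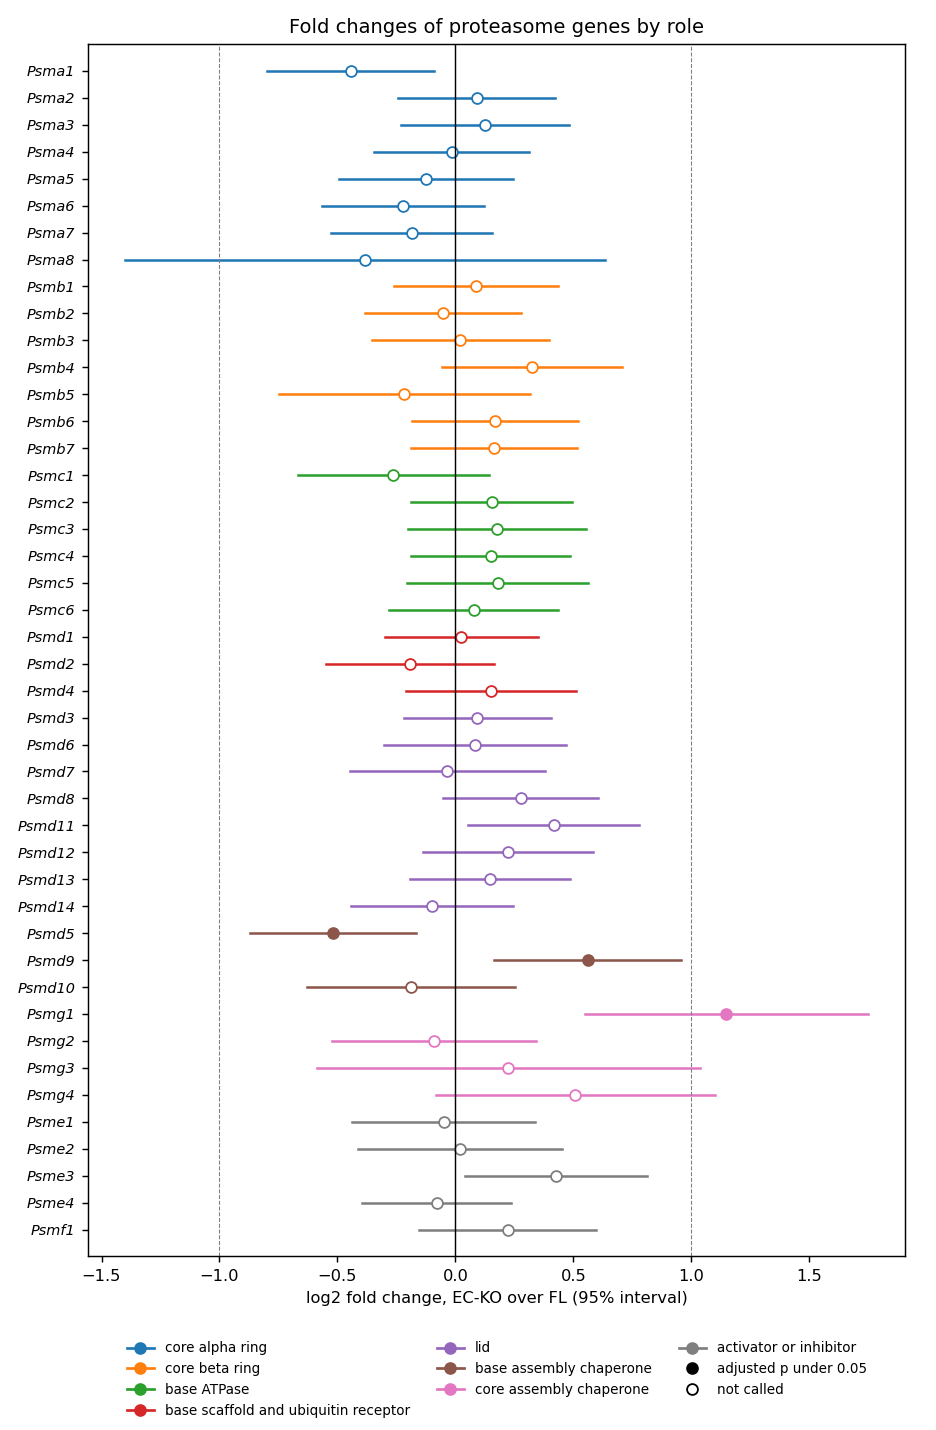
Log2 fold changes of EC-KO over FL (horizontal axis) for 44 proteasome genes, coloured by role, with 95% intervals as bars and filled points for called genes. Psmb11, with a log2 fold change of 3.23, lies beyond the axis and is left out; the points of all 31 subunits of the 26S particle lie between -0.44 and 0.42, and only Psmg1, Psmd9 and Psmd5 are filled.

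Changes in the 26S subunits were small as well as uncalled. In 26 of the 31 the log2 fold change was under 0.25 in size (83.9%), as it was in 33 of all 45 members (73.3%) and in 27.2% of all tested genes. A log2 fold change above 1 in size was found in 0 of the 31 subunits, in 2 of the 45 members and in 23.0% of all genes. Proteasome genes were also measured with smaller errors than most (median SE 0.16, against 0.26 over all genes). The shares over all genes thus include many less precisely measured ones. No share was taken over genes of similar level, so the part of level in these contrasts was not tested. The 95% interval of each of the 31 subunits lay within a change of 1 log2 unit in either direction. The outermost bounds were -0.80 for Psma1 and 0.78 for Psmd11. An interval that includes 0 does not show that a gene was unchanged, but a change of 2-fold lay outside each of these intervals.

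**Figure D2:**
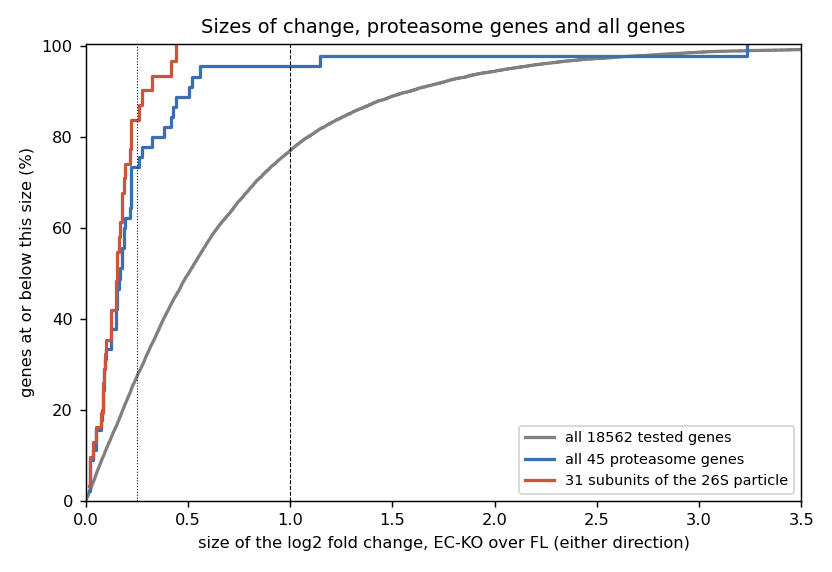
Share of genes (vertical axis, %) whose log2 fold change is at or below a given size (horizontal axis, either direction), for all 18562 tested genes, the 45 proteasome genes and the 31 subunits of the 26S particle. To the left of the dotted line at 0.25 lie 27.2% of all genes and 83.9% of the subunits, the dashed line marks 1, and the blue line reaches its end at Psmb11 (3.23).

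The alpha ring forms the ends of the core and its gate. Of its 7 common subunits 0 were called, 5 had a negative and 2 a positive log2 fold change, and the median was -0.12. Over all tested genes 27.1% were called and the groups did not overlap in 45.4%. With 7 genes, the ring is too small to set against these shares. Psma1 had the smallest p of the ring. It was at 62.9, 65.9 and 72.3 CPM in FL 1, 2 and 3 and at 49.7, 55.3 and 42.8 CPM in EC-KO 1, 2 and 3. Every knockout library lay below every floxed one, and the log2 fold change was -0.44 ± 0.16 (SE; adjusted p = 0.0643, edgeR). It was called lower without EC-KO 2 (-0.57, adjusted p = 0.0132, edgeR) and by DESeq2 (adjusted p = 0.0427). In Psma7 the groups also did not overlap, although by little: the lowest FL library was at 63.3 CPM and the highest EC-KO library at 61.4 CPM (log2 fold change -0.19 ± 0.15). Psma2, Psma3, Psma4, Psma5 and Psma6 overlapped between the groups, with log2 fold changes from -0.22 (Psma6) to 0.13 (Psma3). Psma8, an alpha subunit of the germ line, was at 0.428 to 0.792 CPM in FL and 0.404 to 0.557 CPM in EC-KO, too low for a narrow interval (-0.38 ± 0.45).

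The beta ring carries the proteolytic sites. Among its 7 standard subunits 0 were called and the groups overlapped in each. Over all tested genes 27.1% were called and the groups did not overlap in 45.4%, and 7 genes are too few to set against these shares. Psmb5, the chymotrypsin-like site, was at 14.6, 13.6 and 19.4 CPM in FL 1, 2 and 3 and at 13.3, 17.3 and 10.4 CPM in EC-KO 1, 2 and 3 (-0.22 ± 0.24, adjusted p = 0.525, edgeR). Its groups overlapped, with EC-KO 1 and EC-KO 3 below the lowest floxed library. Psmb6, the caspase-like site, was at 63.1, 55.6 and 57.6 CPM in FL and at 69.2, 72.2 and 56.6 CPM in EC-KO (0.17 ± 0.16, adjusted p = 0.456, edgeR). Psmb7, the trypsin-like site, was at 42.1, 40.0 and 40.8 CPM in FL and at 49.5, 49.1 and 39.0 CPM in EC-KO (0.16 ± 0.16, adjusted p = 0.467, edgeR). For Psmb6 and Psmb7, EC-KO 1 and EC-KO 2 lay above the floxed libraries and EC-KO 3 among or below them. The structural subunits Psmb1, Psmb2 and Psmb3 had log2 fold changes of 0.09, -0.05 and 0.02, and Psmb4 had the highest of the ring at 0.32 ± 0.17 (adjusted p = 0.184, edgeR).

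Psmb11, the beta subunit of the thymus proteasome, was called but barely detected. It had 0, 0 and 4 counts in FL 1, 2 and 3 and 14, 20 and 9 counts in EC-KO 1, 2 and 3, which is at most 0.627 CPM. The fitted log2 fold change of 3.23 ± 0.97 (adjusted p = 0.0373, edgeR) depends on the prior count added to libraries at 0. It was not called without FL 1 (adjusted p = 0.0955), FL 2 (0.114), EC-KO 1 (0.0964) or EC-KO 3 (0.0599), and without FL 3, where the remaining floxed libraries are both at 0, the fitted value was 6.79.

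The ATPases of the base thread substrates into the core. Of the 6, 0 were called and the groups overlapped in each. Over all tested genes 27.1% were called and the groups did not overlap in 45.4%, and 6 genes are too few to set against these shares. Psmc1 had the smallest p, with FL libraries at 91.2, 89.5 and 118.8 CPM and knockout libraries at 84.1, 94.1 and 71.3 CPM, in the order of their numbers (-0.26 ± 0.18, adjusted p = 0.300, edgeR). Its libraries overlapped, with FL 3 the highest and EC-KO 3 the lowest. The other five, Psmc2 to Psmc6, had log2 fold changes between 0.08 (Psmc6) and 0.18 (Psmc5). Of the base subunits without ATPase activity, Psmd1 and Psmd2 are the large scaffolds and Psmd4 is a ubiquitin receptor, and 0 of these 3 were called. Again 3 genes are too few to set against the share over all tested genes. Psmd2 was at 155.5, 152.5 and 175.7 CPM in FL and at 132.9, 159.7 and 130.6 CPM in EC-KO (-0.19 ± 0.16, adjusted p = 0.390, edgeR). Psmd1 stood at 0.02 and Psmd4 at 0.15 on the log2 scale.

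The lid strips ubiquitin chains from substrates. Of its 8 subunits in this set 0 were called, 6 had a positive log2 fold change and the median was 0.12. Over all tested genes 27.1% were called and the groups did not overlap in 45.4%. With 8 genes, the lid is too small to set against these shares. Psmd11, a scaffold of the lid, was at 96.4, 75.1 and 86.7 CPM in FL 1, 2 and 3 and at 104.1, 125.4 and 114.9 CPM in EC-KO 1, 2 and 3. All knockout libraries lay above all floxed ones (0.42 ± 0.16, adjusted p = 0.0833, edgeR). It was called when libraries were scaled by their total alone (0.50, adjusted p = 0.0498, edgeR). The groups also did not overlap in Psmd8 (90.3 to 106.0 CPM in FL, 111.9 to 123.7 CPM in EC-KO, 0.28 ± 0.15) and Psmd3 (72.4 to 79.5 CPM in FL, 81.1 to 82.0 CPM in EC-KO, 0.09 ± 0.14). Psmd14, the deubiquitinating enzyme of the lid, was at -0.10 ± 0.15, and Psmd6, Psmd7, Psmd12 and Psmd13 lay between -0.03 (Psmd7) and 0.22 (Psmd12).

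The other called members were chaperones that assemble the particle. Of the 3 chaperones of the base in the set, 1 was called lower, 1 higher and 1 not at all, where 27.1% of all tested genes were called, and 3 genes are too few to set against that share. Psmd5, which holds part of the ATPase ring during assembly, was at 22.9, 23.3 and 25.6 CPM in FL 1, 2 and 3 and at 17.6, 16.0 and 16.5 CPM in EC-KO 1, 2 and 3. The groups were well apart, and Psmd5 was lower in EC-KO (-0.52 ± 0.16, adjusted p = 0.0369, edgeR). Psmd9, another chaperone of the ATPases, was at 16.0, 13.9 and 17.7 CPM in FL and at 26.3, 21.8 and 22.0 CPM in EC-KO. It was higher in each knockout library (0.56 ± 0.18, adjusted p = 0.0425, edgeR). Psmd10, or gankyrin, overlapped between the groups (12.3 to 17.3 CPM over all libraries, -0.19 ± 0.20, adjusted p = 0.503, edgeR). These calls did not survive most omissions, although the log2 fold changes stayed at -0.58 to -0.50 for Psmd5 and 0.46 to 0.61 for Psmd9. Calls over all genes changed too: 35.1% of tested genes were called without EC-KO 2. Without any other single library the share was 13.2% to 22.5%. With 1 library left out, Psmd5 was called only without EC-KO 2 (adjusted p = 0.0247) and otherwise had adjusted p-values of 0.0558 to 0.122, and Psmd9 was called only without EC-KO 2 (0.0272) and otherwise had 0.0840 to 0.169 (edgeR). Psmd5 was also not called with upper-quartile scaling (0.0628), library-size scaling (0.0822) or no filter on low counts (0.0714), nor Psmd9 with no filter (0.0800).

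Psmg1 had the smallest adjusted p of all members. With Psmg2 it forms a chaperone on which the alpha ring is built. Psmg1 was at 7.69, 5.74 and 6.21 CPM in FL 1, 2 and 3 and at 11.5, 20.2 and 11.8 CPM in EC-KO 1, 2 and 3. The 2 lower knockout libraries lay above the highest floxed library, and EC-KO 2 lay far above both. Psmg1 averaged 6.55 ± 1.02 CPM in FL and 14.5 ± 4.95 CPM in EC-KO (SD, n = 3 each), which is 2.22-fold in the fit, or a log2 fold change of 1.15 ± 0.27 (SE, adjusted p = 0.0141, edgeR). Without EC-KO 2 the log2 fold change was 0.80 (adjusted p = 0.015), and the call was lost without FL 2 (1.05, adjusted p = 0.0629) or FL 3 (1.08, adjusted p = 0.0665). Its partner Psmg2 was at 6.81 to 8.04 CPM in FL and 6.55 to 7.42 CPM in EC-KO (-0.09 ± 0.19). The difference between the partners was not tested. Psmg3 and Psmg4 form the second chaperone pair of the core and were low: Psmg3 was at 0.917 to 1.79 CPM over all libraries (0.22 ± 0.36), and Psmg4 at 1.95 to 2.51 CPM in FL and 2.97 to 3.83 CPM in EC-KO, without overlap but not called (0.51 ± 0.26, adjusted p = 0.179, edgeR).

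**Figure D3:**
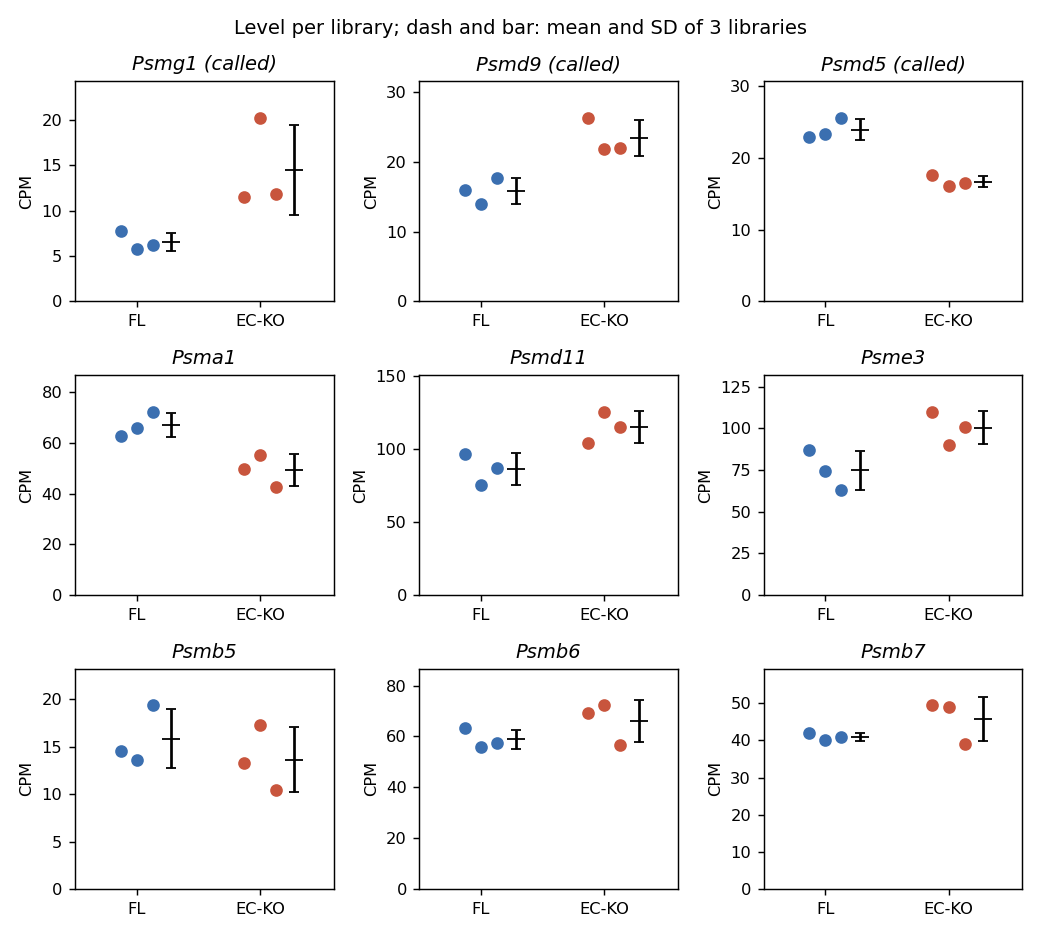
CPM in each library (points; FL blue, EC-KO red) for 9 proteasome genes, with mean and SD of 3 libraries beside them and axes from 0. The groups are apart in Psmg1, Psmd9, Psmd5, Psma1, Psmd11 and Psme3, of which Psmg1, Psmd9 and Psmd5 were called, and overlap in the catalytic subunits Psmb5, Psmb6 and Psmb7.

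Alternative caps and inhibitors of the core were called in 0 of 5 cases, against 27.1% of all tested genes. The groups did not overlap in 45.4% of all tested genes. These are too few genes to set against either share. Psme1 and Psme2 form a cap that interferon induces, and they stood at -0.05 ± 0.17 and 0.02 ± 0.19 on the log2 scale. Psme3 forms the related nuclear cap and was at 87.0, 74.2 and 63.2 CPM in FL 1, 2 and 3 and at 110.1, 90.2 and 101.0 CPM in EC-KO 1, 2 and 3. Its groups did not overlap, but only a narrow gap separated FL 1 from EC-KO 2 (0.43 ± 0.17, adjusted p = 0.0930, edgeR). Without EC-KO 2 it was called (0.47, adjusted p = 0.0464, edgeR). The large activator Psme4 was at -0.08 ± 0.14, and Psmf1, an inhibitor of the core in vitro, at 0.22 ± 0.17.

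The count table places the called members as follows, in a genome build that could not be resolved: chromosome 16, 95781133 to 95792160, minus strand, for Psmg1; chromosome 5, 123307476 to 123388194, plus strand, for Psmd9; chromosome 2, 34739746 to 34764980, minus strand, for Psmd5; and chromosome 14, 54858890 to 54867013, plus strand, for Psmb11. The deposited class counts set aside reads that fit several places, so genes with near-identical copies can be undercounted. Of the 75-base words of the members' coding transcripts in GENCODE M21, 0% were shared with another gene's transcripts for Psmg1, Psmd9 and Psmd5, and 0.17% for Psmb11. More than 20% were shared in 6 members, among them Psmb5 (36.8%), Psma5 (39.8%) and Psme2 (46.9%), whose copy Psme2b was itself at 16.4 to 22.0 CPM over the libraries. Words were compared on both strands, so overlapping neighbours count as well as copies elsewhere. For Psmb7 (24.1%) the words were shared only with Nek6, which overlaps 11.8% of its exon bases on the opposite strand. The levels of these 6 members are therefore uncertain. An unnamed gene on the opposite strand overlapped 15.3% of the exon bases of Psmd5. It had too few counts to be tested, and the strand setting of the counting is not given in the sources used here.

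Within each group the 26S subunits tended to be high or low in the same libraries. Summed over the 31, FL 1, 2 and 3 stood at 2160, 2032 and 2325 CPM, while EC-KO 1, 2 and 3 stood at 2331, 2413 and 2046 CPM. The groups overlapped, with means of 2172 ± 147 and 2263 ± 193 CPM (SD, n = 3 each). FL 3 was the highest floxed library for 23 of the 31 subunits and FL 2 the lowest for 24. EC-KO 3 was the lowest knockout library for 25 of the 31, and EC-KO 2 the highest for 20. Such counts were not made over all tested genes, so this order cannot be called particular to the subunits. Relative to the FL mean, the subunits averaged 0.10 and 0.13 on the log2 scale in EC-KO 1 and EC-KO 2 but -0.11 in EC-KO 3. In EC-KO 3 the share of alignments outside annotated features was also the highest, at 14.4% against 9.10% to 10.8% in the others. Whether that bears on the subunits was not tested.

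**Figure D4:**
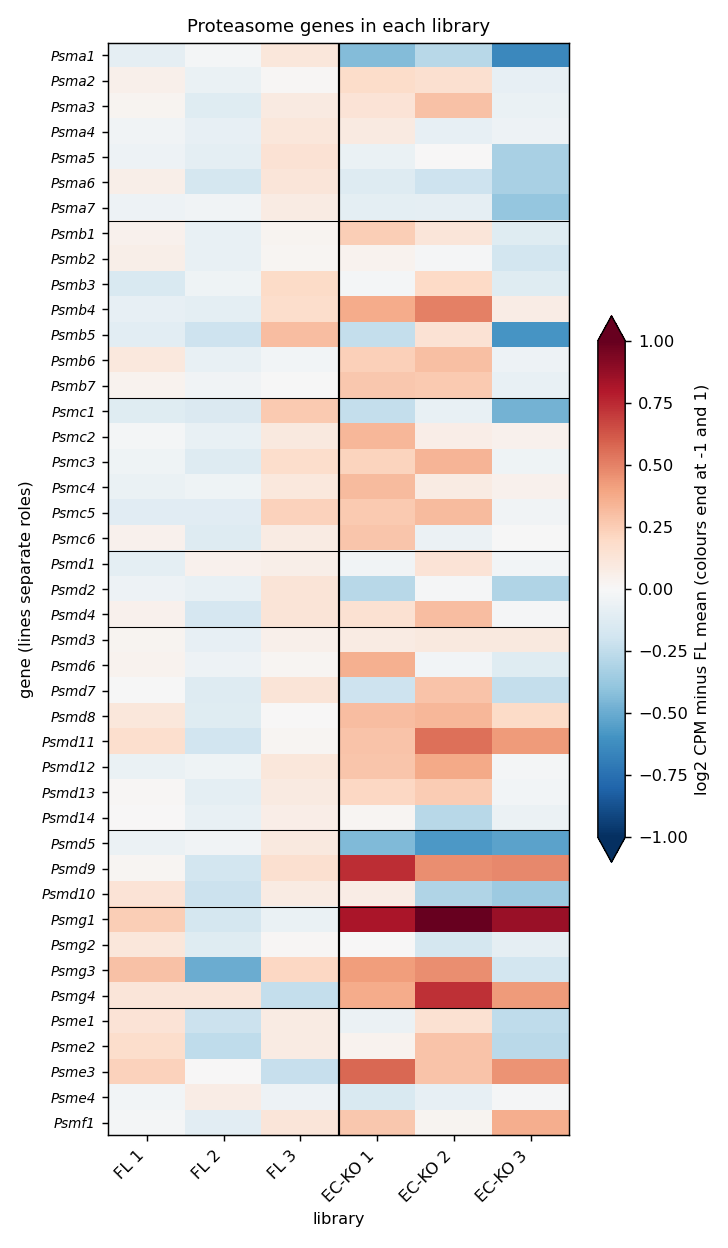
Log2 CPM of 43 proteasome genes (rows, in blocks by role) in each library (columns), minus the mean of the FL libraries, with colours ending at -1 and 1. Most 26S subunits are pale, EC-KO 3 is bluer than EC-KO 1 and EC-KO 2 (subunit averages of -0.11 against 0.10 and 0.13), and Psmg1 is the darkest, ahead of single dark cells in Psmd9, Psmg4, Psma1 and Psmb5.

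Levels per length, in CPM per kilobase of the gene length in the table, spread 4.39-fold over the 31 subunits in FL, from 11.9 ± 0.67 (Psmd1) to 52.3 ± 5.51 (Psma6) with a median of 21.9 (SD, n = 3). The spread in EC-KO was 4.13-fold with a median of 21.7. The order of the subunits was much the same in both groups (Spearman's rho 0.93 over the 31 genes, a description, since genes are not independent replicates). In FL the highest were Psma6, Psmc1 (51.6 ± 8.53) and Psmc5 (44.2 ± 6.25), whose SDs overlap, and the lowest were Psmd1, Psmb7 (12.0 ± 0.31) and Psmc2 (13.4 ± 0.82). The table's length covers all annotated exons and is longer than single transcripts. With the longest coding transcript of GENCODE M21 in its place, the order changed. Psmb6 then stood highest in FL (73.7) and Psmb5, with 36.8% of its words shared, lowest (17.6), so the order of levels depends on the length used.

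**Figure D5:**
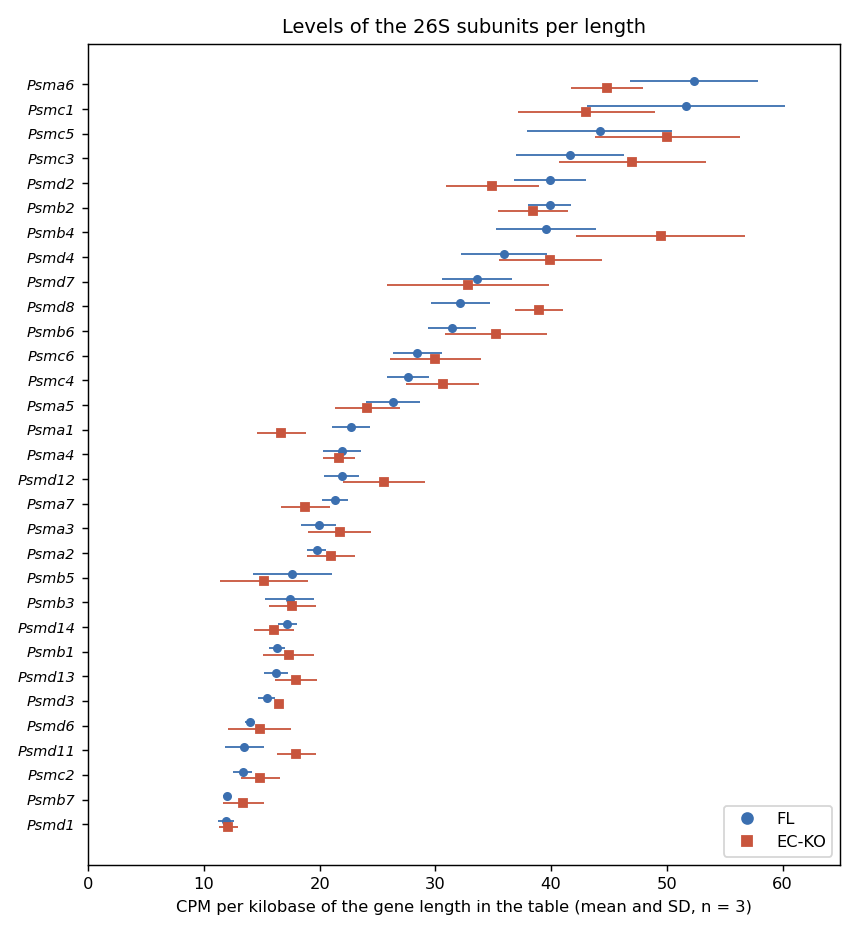
Level of each of the 31 subunits of the 26S particle in CPM per kilobase of the table's gene length (horizontal axis), as mean and SD of 3 libraries for FL (circles) and EC-KO (squares), ordered by FL. Levels run from 11.9 (Psmd1) to 52.3 (Psma6) in FL, and the bars of the groups overlap in 27 of the 31 subunits, while the square lies within the FL bar in 9.

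Genes that work with the proteasome but fall outside the naming rule were called about as often as other genes in the lower direction and in 0 cases in the higher. Of 25 measured partners (subunits with other names, shuttles, deubiquitinases and regulators) 4 were called lower and 0 higher (16.0%, against 13.5% of all genes called lower, 13.5% called higher and 27.1% called in all), with a median log2 fold change of -0.11. Ngly1, the deglycosylase that helps to activate NFE2L1, was at 38.7, 42.5 and 49.3 CPM in FL 1, 2 and 3 and at 23.9, 29.7 and 22.8 CPM in EC-KO 1, 2 and 3 (-0.77 ± 0.18, adjusted p = 0.0130, edgeR). Ube3c, a ubiquitin ligase bound to the proteasome, was at 43.1, 46.2 and 48.8 CPM in FL and at 30.4, 27.3 and 30.0 CPM in EC-KO (-0.65 ± 0.15, adjusted p = 0.0126, edgeR). Both genes were lower in each knockout library. Nfe2l2, the factor of the oxidative stress response, was at 399, 493 and 496 CPM in FL and at 255, 323 and 253 CPM in EC-KO (-0.74 ± 0.18, adjusted p = 0.0170, edgeR). The fourth was Uchl5, a deubiquitinase of the regulatory particle, named after its value was seen (-0.70 ± 0.19, adjusted p = 0.0257, edgeR). Without FL 3 none of the 4 was called, with adjusted p-values from 0.0528 (Ube3c) to 0.0958 (Uchl5). Calls were also lost without FL 2 for Ube3c (0.0534), without EC-KO 1 for Ngly1 (0.0552), and without FL 2, EC-KO 1 or EC-KO 3 for Nfe2l2 (0.0613 to 0.0699) and Uchl5 (0.0589 to 0.0821), all in edgeR. Most endothelial markers were lower in EC-KO as well, and their part in these values was not tested.

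Nfe2l1 and Pomp, which act in making the particle, were not called. Nfe2l1 was at 258, 273 and 344 CPM in FL 1, 2 and 3 and at 199, 294 and 199 CPM in EC-KO 1, 2 and 3 (-0.34 ± 0.21, adjusted p = 0.259, edgeR). EC-KO 2 stood among the floxed libraries, and without it Nfe2l1 was called lower (-0.58, adjusted p = 0.0227, edgeR). Pomp, the maturation factor of the core, was at 55.8, 49.3 and 66.9 CPM in FL and at 50.8, 68.1 and 40.4 CPM in EC-KO (-0.11 ± 0.22, adjusted p = 0.736, edgeR), with overlapping groups. The remaining subunits of the regulatory particle, Adrm1 and Sem1, were at 0.21 ± 0.14 and 0.14 ± 0.17, and Ddi2, the protease that cuts NFE2L1, was at 0.12 ± 0.15. Of 6 genes for ubiquitin and its activation 0 were called by edgeR and 1 had an unadjusted p under 0.05. Over all tested genes 27.1% were called, and 6 genes are too few to set against that share. Ubb, which encodes a chain of ubiquitin units, was at 1011 to 1041 CPM in FL and 1164 to 1307 CPM in EC-KO (0.28 ± 0.16, adjusted p = 0.225, edgeR). Several of these genes have copies or neighbours that share sequence, including Ubb (46.2%) and Adrm1 (72.5%), so their counts are uncertain.

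The immunoproteasome subunits, which replace the catalytic ones in immune and interferon-treated cells, were set beside their standard counterparts. Psmb9 was at 42.4, 36.5 and 40.8 CPM in FL 1, 2 and 3 and at 23.5, 31.6 and 27.0 CPM in EC-KO 1, 2 and 3, lower in each (-0.54 ± 0.17, adjusted p = 0.0417, edgeR), and it was called without EC-KO 2 but not when any other library was left out (adjusted p = 0.0834 to 0.142), nor with upper-quartile (0.0656) or library-size scaling (0.0639). Psmb10 was lower without overlap but not called (-0.57 ± 0.22, adjusted p = 0.0877, edgeR). It was called lower without EC-KO 2 (-0.81, adjusted p = 0.0106, edgeR) and with no filter on low counts (adjusted p = 0.0499, edgeR). Psmb8 was at -0.07 ± 0.16. Ratios of levels per length within a library do not depend on scaling, but their size depends on the length used. For Psmb7 the table's length is 3421 bases and the longest coding transcript 1160, against 1705 and 1311 for Psmb10. The ratios therefore do not show which subunit of a pair was more abundant. Each gene's length is the same in both groups. Of the transcript words, 36.8% were shared with other genes for Psmb5 and 24.1% for Psmb7, so their levels are uncertain. The ratio of Psmb9 to Psmb6 was 0.347 ± 0.0139 in FL and 0.214 ± 0.0361 in EC-KO, and that of Psmb10 to Psmb7 was 2.13 ± 0.318 and 1.27 ± 0.222 (SD, n = 3 each). In both the groups did not overlap, which gives an exact two-sided permutation p of 0.10, the smallest that 3 against 3 libraries allow (0.15 adjusted over the 3 pairs). The ratio of Psmb8 to Psmb5 was 0.687 ± 0.133 and 0.768 ± 0.141 (exact permutation p = 0.50). These ratios were chosen after the values were seen. Macrophage markers were lower in the same libraries (median log2 fold change -2.40), and their part in the ratios was not tested.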

How the data were processed

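RNA sequencing counts of 3 FL and 3 EC-KO libraries were used. Per the file headers, the authors deposited featureCounts output: whole, unscaled counts for each Ensembl gene, with a gene length in bases, and a second table holds alignment counts per class. STAR 2.7.10b, featureCounts 2.0.3 and mm10 are named in the submitters' processing notes, without role. The sources used here do not give strand setting or annotation, and the table's coordinates are not those of GRCm38. A total of 2 per-sample columns matched no sample and were not used. Symbols were found for 51948 of 56941 genes.

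Counts were filtered with filterByExpr (18562 genes kept), scaled with TMM and tested with edgeR 4.0.16 (R 4.3.3; robust glmQLFit and glmQLFTest, two-sided, no covariates, threshold 0.05). Each SE was taken from the size of the log2 fold change and the F statistic (their quotient, with the root of F), and 95% intervals use the test's degrees of freedom. The fit was tested on simulated data. Common biological variation was 25.5%. Alternatives were other scalings and filters, DESeq2 1.42.0, limma-voom (limma 3.58.1), the replicate number as a block, dispersion shrinkage without the robust option and leaving out each library. Figures used matplotlib 3.10.9.

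Members, roles and lists were chosen with earlier results of these data known. Values in every library are given for the catalytic subunits, the member of smallest p in each role and the called members with the largest changes. Partners named were Nfe2l1, Pomp and up to 3 called per direction. Psma7, Psmd3, Psmd8, Psmg4 and other genes outside this rule were named after their values were seen. Paaf1 had no symbol match. Values of some genes on the lists are not reported here.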

Additional observations from a re-analysis of the deposited data

How the results depend on the processing

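All 15 alternatives kept the sign of the median log2 fold change of the members, which ran from 0.03 (without EC-KO 2) to 0.17 (library-size scaling). The median of all tested genes moved as well, from -0.005 to 0.12 in the same 2 settings. With no filter it was 0.10, above the 0.07 of the members. The members' median also varied between libraries of a group, with an SD of 0.105, so the kept sign says little. The number of members called higher was 3 in the main fit, 1 with the replicate block and 0 to 3 when a library was left out. The number called lower was 1 in the main fit, 0 with upper-quartile scaling, library-size scaling, no filter or the replicate block, 2 with DESeq2 and 0 to 2 when a library was left out. Among the 26S subunits 1 was called with library-size scaling (Psmd11), 1 with DESeq2 (Psma1) and 0 to 1 when a library was left out. All genes called numbered 6740 (35.1%) without EC-KO 2, against 5029 (27.1%) in the main fit. Without any other single library they numbered 2547 to 4366 (13.2% to 22.5%). Calls of single genes gained without EC-KO 2 or lost in the other omissions stand beside these shares. The labels do not say whether replicate numbers pair the libraries. Deviations of FL and EC-KO libraries of the same number correlated at 0.05, 0.07 and -0.18, and those of different numbers at -0.22 to 0.23. These values show no effect shared by number, but cannot show that the libraries were not prepared in pairs. With the replicate block 3848 genes were called, and Psmg1 (1.11, adjusted p = 0.0305, edgeR) was the 1 member among them. Psmb11 was not tested with the filter of 1 CPM or without EC-KO 2. The low counts of Psmb11, Psma8, Psmg3 and Psmg4 limit their precision.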

Other observations

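Genes named like members but outside the naming rule were also measured. Psme2b, a copy of Psme2, was at 18.3 ± 0.67 CPM in FL and 18.8 ± 2.92 CPM in EC-KO (SD, n = 3 each; log2 fold change 0.04 ± 0.18, SE). Psmc3ip, which works in meiotic recombination and is no part of the proteasome, was at 1.74 ± 0.50 and 2.10 ± 0.44 CPM. For 4 of the partners whose products bring ubiquitinated proteins to the particle, described after their values were seen, the log2 fold changes were -0.27 ± 0.14 for Ubqln1, -0.37 ± 0.14 for Ubqln2, 0.31 ± 0.15 for Ubqln4 and 0.11 ± 0.14 for Rad23b. The groups did not overlap in these 4 genes, 0 of them were called by edgeR, and 1 had an unadjusted p under 0.05 (Ubqln2). Over all tested genes the groups did not overlap in 45.4%, and 4 genes are too few to set against that share.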
